A study of Homo sapiens with 12 samples.

Results

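The genes described here are 8 chemoattractant receptors, CCR1, CCR2, CCR7, CXCR2, CXCR3, CXCR4, CX3CR1 and CMKLR1, out of 19777 genes measured. They were chosen by name, and each is represented by the probe set that names it alone and has the highest mean over the 12 arrays. All 8 had such a probe set, and 16 probe sets named a member in all. The cells were U937, an established human myelomonocytic leukaemia line, transduced either with a vector that expresses the zinc finger transcription factor EVI1 or with the empty vector. Both populations received for 24 h either the phorbol ester TPA at 50 ng/ml, which activates protein kinase C and pushes U937 toward macrophage features, or the same amount of its solvent, ethanol. The 4 groups were thus EVI1 vector cells with TPA, empty vector cells with TPA, EVI1 vector cells with ethanol and empty vector cells with ethanol, with 3 biological replicates each. The promoter that drives EVI1 and the number of transductions or clones are not given in the sources used here, so p-values between the populations may cover only the spread between cultures.

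Chemokine receptors are membrane-spanning receptors that couple mainly to inhibitory G proteins and steer cells along gradients of small secreted chemokines. Monocytes leave the bone marrow with the help of CCR2, are held there through CXCR4, and change their set of receptors as they become macrophages. CMKLR1 belongs to the same receptor superfamily but binds chemerin, a chemoattractant protein encoded by RARRES2.

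All values are log2 probe set signals from Affymetrix arrays, so a difference of 1 is a doubling of signal. Tests are limma's moderated test over all 12 arrays with Benjamini-Hochberg adjustment over 19777 genes, and a gene is said to rise, fall or differ where the adjusted p was under 0.05. The number of arrays sets the precision, with a median SE of 0.11 for a difference between a pair of groups and 0.15 for a difference between responses. The lowest of the array medians, 5.07, serves as a background mark, and no claim of detection is made for group means under it. Arrays of a group correlated at 0.991 to 0.997. The 5 probe sets for MECOM, the gene that encodes EVI1, read 2.59 to 3.32 on every array, so EVI1 expression is not shown by these probe sets, whose place relative to the vector insert was not compared. The cells with the EVI1 vector are therefore called EVI1-labelled. Of 15 measured monocyte and macrophage markers, all but ITGAX, FCGR1A, CD163 and MRC1 were above 5.07 in at least 1 ethanol group. Of 10 T and NK cell markers, CD3E, CD3G, CD2, CD8A and KLRD1 were below 5.07 in all groups and the other 5, CD3D and CD247 among them, were above it in at least 1 group. Of 6 B cell markers, MS4A1 was below it in all groups and the other 5 were above it in at least 1.

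Promoter sequences were available in RefSeq for 7 of the 8 members, with 11 start sites among them. The windows of the 4 members with the largest changes with TPA in empty vector cells, at the first of 3 listed starts for CXCR4, are shown as the 250 bases before the start, because CCR1 and CMKLR1 rose with TPA while CXCR4 and CCR2 fell. Capitals mark 3 motifs searched on both strands. They are a pattern that includes the TPA response element of the AP-1 factors (TGANTCA, with N any base), the core site of the myeloid factor PU.1 (GAGGAA) and the TATA box (TATAAA).
CCR1, GRCh38.p14, chr3:46208314-46208563, minus strand: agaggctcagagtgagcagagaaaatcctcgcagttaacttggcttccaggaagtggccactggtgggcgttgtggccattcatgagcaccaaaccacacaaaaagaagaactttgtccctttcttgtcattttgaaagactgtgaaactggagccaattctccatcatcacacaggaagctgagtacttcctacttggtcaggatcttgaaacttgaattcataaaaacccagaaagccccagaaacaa
CMKLR1, GRCh38.p14, chr12:108320643-108320892, minus strand: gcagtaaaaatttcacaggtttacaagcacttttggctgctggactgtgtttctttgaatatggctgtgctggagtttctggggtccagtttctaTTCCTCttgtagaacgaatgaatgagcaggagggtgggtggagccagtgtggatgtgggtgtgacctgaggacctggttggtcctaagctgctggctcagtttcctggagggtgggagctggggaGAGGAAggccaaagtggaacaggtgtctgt
CXCR4, GRCh38.p14, chr2:136118150-136118399, minus strand: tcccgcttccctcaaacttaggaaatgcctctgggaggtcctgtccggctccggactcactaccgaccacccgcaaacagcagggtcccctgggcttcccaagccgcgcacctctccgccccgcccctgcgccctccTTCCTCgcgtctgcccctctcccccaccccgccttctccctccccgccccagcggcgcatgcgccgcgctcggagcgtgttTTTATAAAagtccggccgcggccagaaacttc
CCR2, GRCh38.p14, chr3:46353861-46354110, plus strand: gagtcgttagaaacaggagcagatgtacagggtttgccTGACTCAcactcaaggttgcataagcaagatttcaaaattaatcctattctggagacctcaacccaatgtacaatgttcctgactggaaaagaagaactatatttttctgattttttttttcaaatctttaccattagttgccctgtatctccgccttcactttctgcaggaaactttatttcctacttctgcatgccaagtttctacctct
The TGANTCA pattern was found in 1 of 11 member windows, that of CCR2, as TGACTCA at bases 212 to 206 before the start. Of 35116 promoter windows, 6.57% held the pattern. The PU.1 core was found in 5 of 11 member windows, against 23.6% of all windows. These belonged to CMKLR1, CX3CR1, CXCR3 and CXCR4, and CX3CR1 and CXCR4 each had 3 listed starts. The TATA letters were found in 1 of 11 member windows, against 10.7% of all windows. This was the CXCR4 window shown, where a forward and a reverse match overlap between bases 32 and 25 before the start. The CCR1 window held none of the 3 motifs, and any link between the motifs and the TPA responses was not tested. These matches are descriptions of the letters and not shown binding sites.

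TPA moved 6 of the 8 receptors, and the same 6 in the same direction in both populations. CCR1, CMKLR1 and CX3CR1 rose, CXCR4, CCR2 and CXCR2 fell, and CXCR3 and CCR7 did not pass the test. The CCR2 fall in EVI1-labelled cells lay between means below 5.07, and its call was lost without some single arrays. For CX3CR1 in empty vector cells the call was lost with the mean of its probe sets. The 3 rises stand against 19.4% of all genes higher with TPA in EVI1-labelled cells and 20.7% in empty vector cells, and the 3 falls against 20.6% and 22.5% lower. The 6 called in each population stand against 40% in EVI1-labelled cells and 43.2% in empty vector cells. Groups did not overlap for the same 6, against 46.5% of all genes in EVI1-labelled cells (22.8% higher and 23.8% lower with TPA) and 50.3% in empty vector cells (25% higher and 25.3% lower). The median difference over the 8 members was 0 in EVI1-labelled cells and -0.02 in empty vector cells, beside 0 and 0.02 over all genes in the same populations. In these bulk samples, fewer cells that carry a transcript and less of it per cell cannot be told apart.

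**Figure D1:**
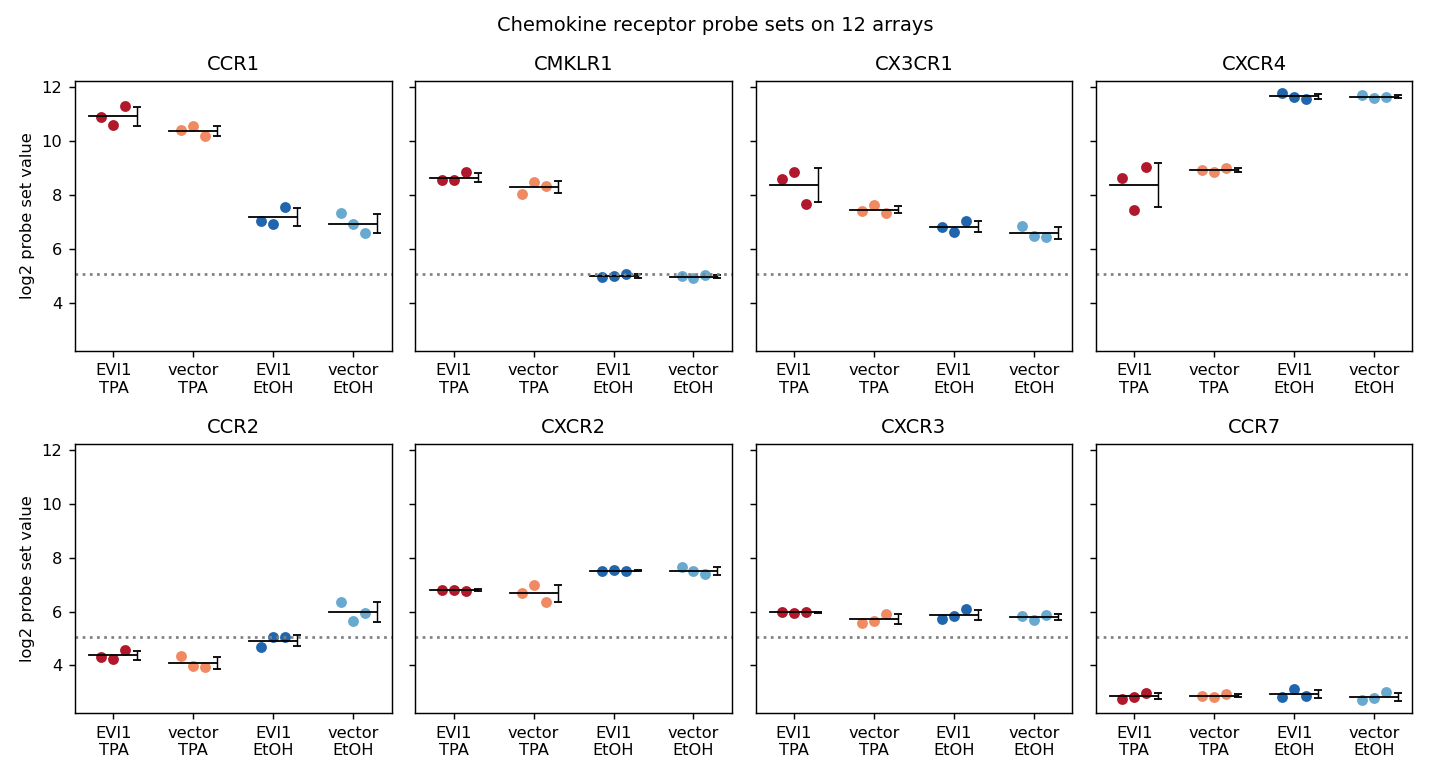
Log2 probe set value (vertical axis) of each receptor on the 12 arrays, by group (horizontal axis, EVI1 meaning EVI1-labelled cells). Points are arrays, bars are group means with the SD beside them, and the dotted line is 5.07, the lowest array median. CCR1, CMKLR1 and CX3CR1 are higher on TPA arrays, CXCR4 and CXCR2 lower, and CCR7 lies below the line in every group.

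CCR1 binds inflammatory CC chemokines such as CCL3, CCL5, CCL7 and CCL23 and is carried by monocytes and macrophages. It read 10.89, 10.6 and 11.29 in EVI1-labelled cells with TPA, 10.4, 10.55 and 10.2 in empty vector cells with TPA, 7.03, 6.94 and 7.55 in EVI1-labelled cells with ethanol, and 7.32, 6.93 and 6.58 in empty vector cells with ethanol. Every TPA array was above every ethanol array, and the ethanol groups overlapped. CCR1 rose by 3.75 ± 0.21 (SE, n = 3 against 3) in EVI1-labelled cells (limma adjusted p = 4.04e-09) and by 3.44 ± 0.21 in empty vector cells (7.6e-09). The second CCR1 probe set gave 3.21 ± 0.20 in EVI1-labelled cells and 3.29 ± 0.20 in empty vector cells. With TPA the EVI1-labelled arrays were all above the empty vector arrays by a mean of 0.54 ± 0.21, which did not pass the test (limma adjusted p = 0.131). Such a separation in TPA was found for 4 receptors, CCR1, CMKLR1, CX3CR1 and CXCR3, all higher in EVI1-labelled cells, against 11.9% of all genes higher, 10.5% lower and 22.4% either way. At the second probe sets of CCR1, CX3CR1 and CXCR3, and at 1 of the other CMKLR1 probe sets, the populations overlapped in TPA.

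CMKLR1, the chemerin receptor of macrophages and plasmacytoid dendritic cells, was near or below the background mark in ethanol and clearly above it with TPA. It read 8.54, 8.54 and 8.84 in EVI1-labelled cells with TPA and 8.04, 8.5 and 8.34 in empty vector cells with TPA. With ethanol it read 4.94, 4.99 and 5.07 in EVI1-labelled cells and 4.99, 4.92 and 5.01 in empty vector cells. The rise was 3.64 ± 0.12 in EVI1-labelled cells (limma adjusted p = 2.53e-11) and 3.32 ± 0.12 in empty vector cells (3.65e-11). Since the ethanol means lay below 5.07, these sizes are uncertain. The other probe sets also rose, by much less. One of them, the more responsive in EVI1-labelled cells, rose by 0.85 ± 0.12 in EVI1-labelled cells and by 0.39 ± 0.12 in empty vector cells, and the other by 0.56 ± 0.14 in EVI1-labelled cells and 0.74 ± 0.14 in empty vector cells. The smaller of these in EVI1-labelled cells came from a probe set with all 4 group means below 5.07, at 3.72 to 4.46. All 3 probe sets rose in both populations, by sizes that differed between them.

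CX3CR1, the receptor for the membrane-bound chemokine fractalkine, marks patrolling monocytes and microglia. It read 8.61, 8.86 and 7.65 in EVI1-labelled cells with TPA, 7.4, 7.62 and 7.35 in empty vector cells with TPA, 6.83, 6.61 and 7.04 in EVI1-labelled cells with ethanol and 6.84, 6.48 and 6.45 in empty vector cells with ethanol. The 3 EVI1-labelled TPA arrays were the highest, replicate 3 lay close to the empty vector TPA arrays, and the ethanol groups overlapped. CX3CR1 rose by 1.55 ± 0.24 in EVI1-labelled cells (limma adjusted p = 8.98e-05) and by 0.87 ± 0.24 in empty vector cells (0.0083). It was the 1 member called between the populations in TPA, higher by 0.92 ± 0.24 in EVI1-labelled cells (limma adjusted p = 0.0233), beside 5.9% of all genes called higher, 5.3% lower and 11.2% either way. That call was lost without replicate 1 or 2 of EVI1-labelled cells with TPA (adjusted p = 0.0839 and 0.106) and without replicate 1 or 3 of empty vector cells with TPA (0.0689 and 0.0795). The difference between the responses was 0.68 ± 0.34 and missed the threshold (limma adjusted p = 0.435), but was 1.04 with an adjusted p of 0.0143 without replicate 3 of EVI1-labelled cells with TPA. The second CX3CR1 probe set had all group means below 5.07 and gave -0.05 ± 0.12 with TPA in EVI1-labelled cells and -0.01 ± 0.12 in empty vector cells.

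CXCR4, the receptor for CXCL12 that retains progenitors in the marrow, showed the largest fall of the 8. It read 8.63, 7.46 and 9.03 in EVI1-labelled cells with TPA, 8.93, 8.86 and 9 in empty vector cells with TPA, 11.78, 11.64 and 11.58 in EVI1-labelled cells with ethanol and 11.7, 11.61 and 11.64 in empty vector cells with ethanol. All TPA arrays were below all ethanol arrays, and 1 array, replicate 2 of EVI1-labelled cells with TPA, stood below the rest. CXCR4 fell by 3.29 ± 0.27 in EVI1-labelled cells (limma adjusted p = 1.85e-07) and by 2.72 ± 0.27 in empty vector cells (1.08e-06). The other 2 probe sets gave -3.14 ± 0.29 and -3.13 ± 0.21 in EVI1-labelled cells, and -2.57 ± 0.29 and -2.54 ± 0.21 in empty vector cells. Replicate 2 was also the lowest of its group in both, at 5.87 and 6.25. Between the populations in TPA the estimate was -0.56 ± 0.27, which was not called (limma adjusted p = 0.251). Without replicate 2 this was -0.10, and without replicate 3 of the same group it was -0.89 with an adjusted p of 0.0233.

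CCR2, the receptor for CCL2 that brings inflammatory monocytes out of the marrow, was the member whose response to TPA differed between the populations. It read 4.32, 4.23 and 4.57 in EVI1-labelled cells with TPA, 4.35, 3.98 and 3.94 in empty vector cells with TPA, 4.68, 5.04 and 5.05 in EVI1-labelled cells with ethanol and 6.37, 5.63 and 5.96 in empty vector cells with ethanol. The empty vector ethanol arrays were the highest, with no overlap, the EVI1-labelled ethanol arrays came next, and the TPA groups overlapped each other. CCR2 fell by 0.55 ± 0.18 in EVI1-labelled cells (limma adjusted p = 0.0215) and by 1.90 ± 0.18 in empty vector cells (5.18e-07). In ethanol CCR2 was lower in EVI1-labelled cells by a difference of -1.06 ± 0.18 (limma adjusted p = 0.00352), the only member called there, beside 1.95% of all genes called lower, 1.32% higher and 3.27% either way. CCR2 was also the 1 receptor whose groups did not overlap in ethanol, against 11.4% of all genes lower, 10.6% higher and 22% either way. In TPA the difference was 0.28 ± 0.18 and was not called (limma adjusted p = 0.4). The difference between the responses was 1.35 ± 0.25 (limma adjusted p = 0.0146), beside 0.935% of all genes called in that direction and 1.98% either way.

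Both CCR2 calls between the populations held without each array in turn, with adjusted p up to 0.0239 in ethanol and 0.0428 for the difference in response. Both use the same ethanol arrays, so they are not independent of each other. The fall in EVI1-labelled cells was lost without replicate 2 or 3 of EVI1-labelled cells with ethanol (adjusted p = 0.0778 and 0.0797) and without replicate 1 or 2 of EVI1-labelled cells with TPA (0.0573 and 0.0785). Only empty vector cells with ethanol had a CCR2 mean above 5.07, so the sizes of these differences are uncertain. The second CCR2 probe set, which the platform annotation ties to a different transcript accession, had all 4 group means below 5.07, at 3.94 to 4.24. It fell with TPA in EVI1-labelled cells (-0.30 ± 0.11, adjusted p = 0.0454 over all probe sets) and gave 0.04 ± 0.11 in empty vector cells, 0.04 ± 0.11 between the populations in ethanol and -0.34 ± 0.15 for the difference in response (adjusted p = 0.431).

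CXCR2, the receptor for CXCL8 and related chemokines that draws neutrophils, fell in both populations by less than CXCR4. It read 6.81, 6.81 and 6.77 in EVI1-labelled cells with TPA, 6.69, 6.99 and 6.36 in empty vector cells with TPA, 7.51, 7.55 and 7.5 in EVI1-labelled cells with ethanol and 7.67, 7.5 and 7.38 in empty vector cells with ethanol. TPA arrays were all below ethanol arrays, and the populations overlapped in each treatment. With TPA the difference was -0.72 ± 0.13 in EVI1-labelled cells (limma adjusted p = 0.000313) and -0.84 ± 0.13 in empty vector cells (7.67e-05). The difference between the responses was 0.11 with a 95% interval of -0.28 to 0.50, and differences of that size remain possible.

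**Figure D2:**
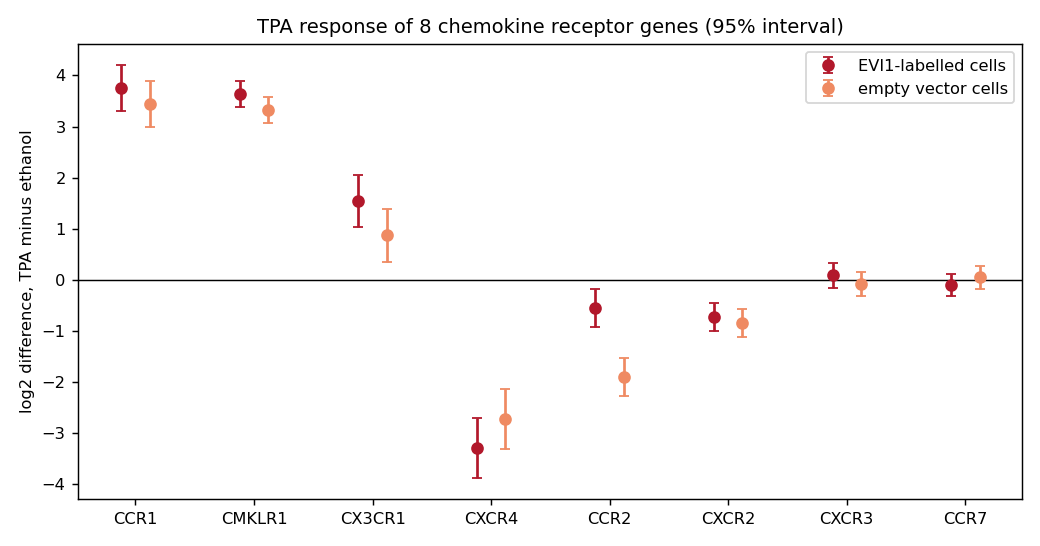
Fitted log2 difference, TPA minus ethanol (vertical axis), of the 8 receptors (horizontal axis) in EVI1-labelled and empty vector cells, with 95% intervals from the fit. CCR1 and CMKLR1 lie above 3 in both populations, CXCR4 near -3, and CCR2 is the receptor whose intervals are apart, at -0.55 in EVI1-labelled cells and -1.90 in empty vector cells.

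The other pair belongs mainly to lymphoid and dendritic cells. CXCR3, the receptor of T and NK cells for CXCL9, CXCL10 and CXCL11, read 5.95 to 5.99 in EVI1-labelled cells with TPA, 5.58 to 5.92 in empty vector cells with TPA, 5.72 to 6.08 in EVI1-labelled cells with ethanol and 5.68 to 5.88 in empty vector cells with ethanol. TPA minus ethanol was 0.09 ± 0.11 in EVI1-labelled cells and -0.09 ± 0.11 in empty vector cells, neither called (limma adjusted p = 0.599 and 0.593), with 95% intervals of -0.15 to 0.33 and -0.32 to 0.15. In TPA the EVI1-labelled arrays were all higher, by a mean of 0.26 ± 0.11 (limma adjusted p = 0.173). CCR7, which guides dendritic cells and naive T cells to lymph nodes, read between 2.71 and 3.11 on every array and is not shown to be above background. Its TPA differences were -0.10 ± 0.10 in EVI1-labelled cells and 0.05 ± 0.10 in empty vector cells.

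**Figure D3:**
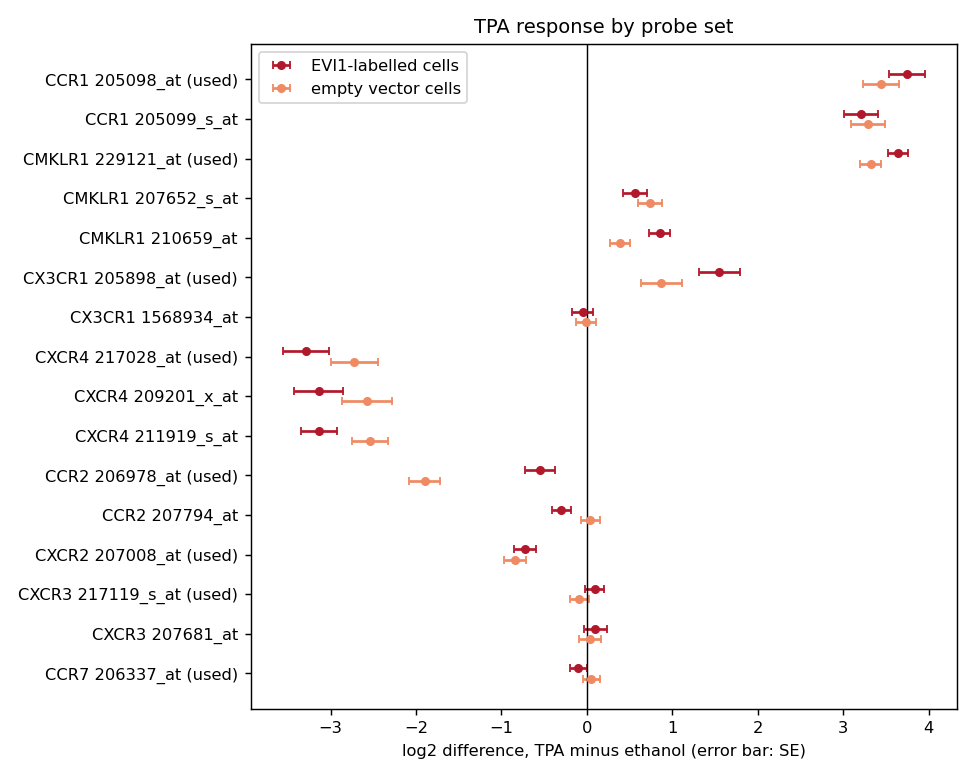
Fitted log2 difference, TPA minus ethanol, with its SE (horizontal axis), for each of the 16 single-gene probe sets of the receptors (vertical axis) in EVI1-labelled and empty vector cells. The probe sets of CCR1 and of CXCR4 lie together, the 3 of CMKLR1 all lie above 0 at different sizes, and of the second probe sets of CX3CR1 and CCR2, dim in all groups, that of CX3CR1 lies near 0 and that of CCR2 is at -0.30 in EVI1-labelled cells and 0.04 in empty vector cells.

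Of the other 15 chemokine receptors measured, 4 were called with TPA in EVI1-labelled cells and 3 in empty vector cells, against 40% and 43.2% of all genes in the same populations. CCRL2, an atypical receptor that binds chemerin and can present it to CMKLR1, averaged 10.27 in EVI1-labelled cells with TPA, 9.62 in empty vector cells with TPA, 5.96 in EVI1-labelled cells with ethanol and 5.75 in empty vector cells with ethanol. It rose by 4.31 ± 0.14 in EVI1-labelled cells and by 3.87 ± 0.14 in empty vector cells (limma adjusted p = 2.46e-11 and 3.98e-11), and in TPA it was higher in EVI1-labelled cells by 0.65 ± 0.14 (0.00645). ACKR3, an atypical receptor that scavenges CXCL12, rose by 3.30 ± 0.19 in EVI1-labelled cells and 3.53 ± 0.19 in empty vector cells, while CXCR4, the signalling receptor for the same ligand, fell. ACKR3 averaged 4.43 in EVI1-labelled cells and 4.25 in empty vector cells with ethanol, below 5.07, so the size of its rise is uncertain. CXCR5 rose in EVI1-labelled cells (0.44 ± 0.13, limma adjusted p = 0.0126) and gave 0.06 ± 0.13 in empty vector cells. Its difference in response, 0.37 ± 0.18, was not called (limma adjusted p = 0.419). None of the 15 had a called difference in response, beside 1.98% of all genes. CCR6 fell by 0.34 ± 0.12 in EVI1-labelled cells and by 0.33 ± 0.12 in empty vector cells, at levels of 2.87 to 3.22. In all, 3 rose and 1 fell in EVI1-labelled cells, and 2 rose and 1 fell in empty vector cells. The median difference was 0.07 in EVI1-labelled cells and 0.06 in empty vector cells, beside 0 and 0.02 over all genes.

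The receptors that share the CCR1 region of chromosome 3 moved in opposite directions. In the RefSeq gene order of GRCh38.p14, CCR3 is the 1 protein-coding gene that starts between CCR1 and CCR2, and CCRL2 is the next measured receptor gene after CCR2. CCR1 rose, CCR2 fell and CCRL2 rose with TPA in both populations. CCR3 was not analysed here, since no probe set names it alone. XCR1, the measured receptor gene on the other side of CCR1, gave 0.22 ± 0.13 in EVI1-labelled cells and 0.31 ± 0.13 in empty vector cells and was not called (limma adjusted p = 0.215 and 0.0675).

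**Figure D4:**
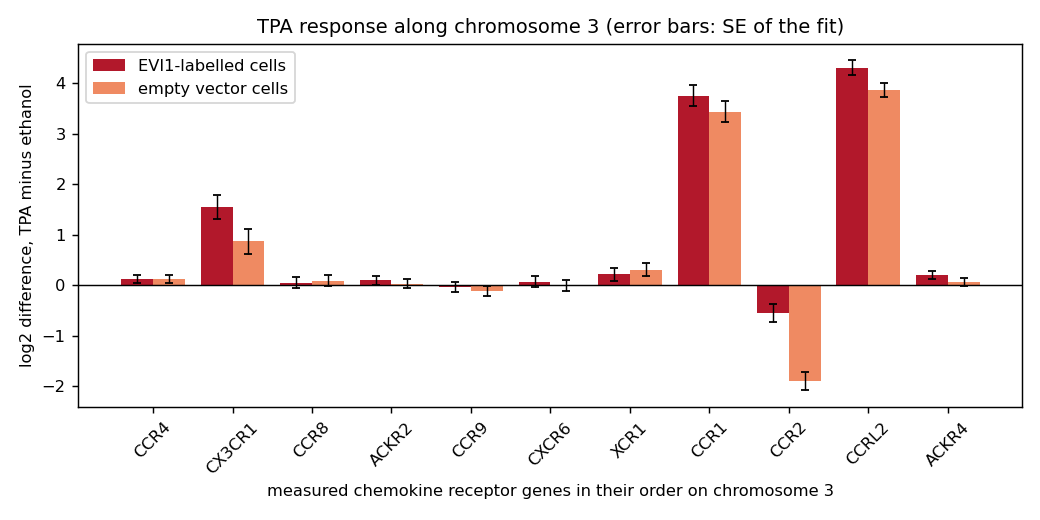
Fitted log2 difference, TPA minus ethanol (vertical axis), with its SE, of the 11 measured chemokine receptor genes of chromosome 3 in gene order (horizontal axis, not to distance) in EVI1-labelled and empty vector cells. CCR1 and CCRL2 stand above 3 on either side of CCR2, which lies below 0.

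TPA also changed the levels of several ligands of these receptors, and 5 ligands had a response that differed between the populations. Of 22 measured ligands, 9 rose and 1 fell in EVI1-labelled cells, and 11 rose and 1 fell in empty vector cells, against 40% and 43.2% of all genes called either way in the same populations. The medians were 0.18 in EVI1-labelled cells and 0.66 in empty vector cells, beside 0 and 0.02 over all genes. For CCR2, its ligand CCL2 rose by 5.19 ± 0.33 in EVI1-labelled cells and by 6.31 ± 0.33 in empty vector cells, opposite to the receptor, and CCL7 rose by 5.13 ± 0.41 in EVI1-labelled cells and 6.06 ± 0.41 in empty vector cells. CCL7 averaged 3.37 in EVI1-labelled cells and 3.27 in empty vector cells with ethanol, below 5.07, so the size of its rise is uncertain. For CCR1, CCL23 rose by 0.81 ± 0.11 in EVI1-labelled cells and 1.12 ± 0.11 in empty vector cells. CCL5 gave -0.34 ± 0.15 in EVI1-labelled cells (limma adjusted p = 0.0922) and rose by 1.14 ± 0.15 in empty vector cells. For CXCR2, CXCL8 rose by 3.76 ± 0.18 in EVI1-labelled cells and 4.85 ± 0.18 in empty vector cells. CXCL2 rose by 0.93 ± 0.24 in EVI1-labelled cells and 3.06 ± 0.24 in empty vector cells. The related chemokine genes CXCL3 and PPBP rose by 0.50 ± 0.15 and 0.70 ± 0.22 in EVI1-labelled cells, and by 2.46 ± 0.15 and 5.11 ± 0.22 in empty vector cells. CXCL8, CXCL2, CXCL3, PPBP and CCL5 were the 5 ligands with a called difference in response, all smaller in EVI1-labelled cells, from -1.09 ± 0.25 for CXCL8 to -4.41 ± 0.31 for PPBP, beside 1.05% of all genes called in that direction. PPBP was above 5.07 only in empty vector cells with TPA, and CXCL3 was below it in both ethanol groups, so the sizes for these genes are uncertain. The 1 called difference among the receptors, that of CCR2, had the opposite sign.

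Ligands of the remaining receptors mostly did not pass the test. CXCL12, the ligand of CXCR4 and ACKR3, averaged 4.01 to 4.10 in the 4 groups, below the background mark. MIF, a cytokine that also binds CXCR2 and CXCR4, fell by 0.67 ± 0.07 in each population. CX3CL1, which encodes fractalkine, gave -0.01 ± 0.10 in EVI1-labelled cells and 0.22 ± 0.10 in empty vector cells, and RARRES2 gave -0.03 ± 0.12 in EVI1-labelled cells and 0.15 ± 0.12 in empty vector cells, none of them called. CXCL10, a ligand of CXCR3, gave 0.67 ± 0.44 in EVI1-labelled cells (limma adjusted p = 0.276) and rose by 1.55 ± 0.44 in empty vector cells (0.00979), from ethanol means below 5.07. CCL19 and CCL21, the ligands of CCR7, were not called in either population.

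**Figure D5:**
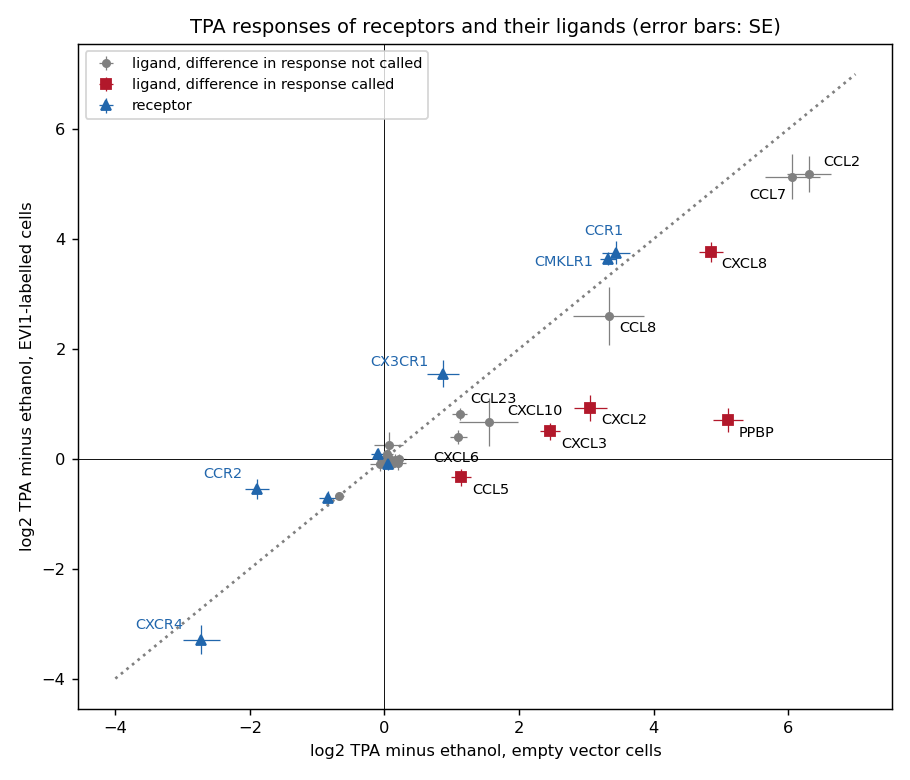
Log2 difference, TPA minus ethanol, in EVI1-labelled cells (vertical axis) against empty vector cells (horizontal axis) for the 8 receptors (triangles) and 22 ligands (circles, or squares where the difference in response was called), with the SE of each. The dotted line marks equal responses. PPBP, CXCL2, CXCL3, CXCL8 and CCL5 lie below the line and CCR2 above it.

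A list of 21 receptor signalling genes held those for G protein subunits, phosphoinositide 3-kinase gamma, phospholipase C and Rac activation, with JAK2 and NUP85. Of these, 11 rose and 3 fell in EVI1-labelled cells, and 13 rose and 2 fell in empty vector cells. Of all genes, 19.4% rose and 20.6% fell in EVI1-labelled cells, and 20.7% rose and 22.5% fell in empty vector cells. The median of the 21 was 0.23 in EVI1-labelled cells and 0.32 in empty vector cells, beside 0 and 0.02 over all genes. PIK3R5, a regulatory subunit of phosphoinositide 3-kinase gamma, rose by 2.36 ± 0.08 in EVI1-labelled cells and by 2.94 ± 0.08 in empty vector cells. RAC2, a small GTPase of blood cells, rose by 1.52 ± 0.10 in EVI1-labelled cells and 1.49 ± 0.10 in empty vector cells. The phospholipase gene PLCB2 rose by 1.33 ± 0.10 in EVI1-labelled cells and 1.48 ± 0.10 in empty vector cells. NUP85, a nuclear pore protein also reported to bind CCR2, had the largest fall, with differences of -2.09 ± 0.09 in EVI1-labelled cells and -2.17 ± 0.09 in empty vector cells. GNB4, a G protein beta subunit, differed by -0.65 ± 0.10 in EVI1-labelled cells and -0.46 ± 0.10 in empty vector cells, both called, and the gamma subunit GNG2 fell in EVI1-labelled cells (-0.66 ± 0.15). The response differed between the populations for GNA15 (-1.04 ± 0.18), PREX1 (-0.74 ± 0.11) and PIK3R5 (-0.59 ± 0.12), all smaller in EVI1-labelled cells (limma adjusted p = 0.00885, 0.00454 and 0.0224). A difference in response was called in that direction for 1.05% of all genes, and either way for 1.98%.

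Genes with a pattern like that of a receptor were ranked by the root mean square difference from it over the 12 arrays, after each was centred on its own mean, among 13100 genes with a group mean above 5.07. FBXO32, an E3 ubiquitin ligase component, and the Src family kinase gene FGR were nearest to CCR1, both at 0.25, followed by CMKLR1 at 0.26. CMKLR1 was nearest to FBXO32 and SLC41A2, both at 0.17, and CPEB2 at 0.18. CXCR4 was nearest to FOXP4-AS1, the DNA glycosylase gene NEIL3 and KBTBD11, at 0.27, 0.30 and 0.32. CX3CR1 was nearest to PPFIA4, RBKS and SGMS2, at 0.23, 0.24 and 0.25, and PPFIA4 averaged 7.58 in EVI1-labelled cells with TPA, against 6.22 in empty vector cells with TPA. CCR2 was nearest to KIF26B, PRDM13 and GNAL, at 0.20, 0.25 and 0.29, and KIF26B averaged 5.87 in EVI1-labelled cells with ethanol, against 6.89 in empty vector cells with ethanol. The values nearest to CXCR2 were those of PHKA2, ALDH16A1 and ZNF230, each at 0.11.

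Measures of RNA quality and some markers of other cells moved with the treatment, and their part in the TPA responses was not tested. The gap between the 3' and 5' control probe sets of ACTB averaged 1.31 ± 0.17 over 6 arrays with TPA and 1.85 ± 0.13 over 6 with ethanol (SD, exact permutation test, two-sided p = 0.00216), and that of GAPDH was 0.40 ± 0.11 with TPA and 0.57 ± 0.15 with ethanol (p = 0.0476 by the same exact test). The mean value over 10 T and NK cell markers was 5.42 to 5.63 on TPA arrays and 4.75 to 4.87 on ethanol arrays, with 1 gene higher in EVI1-labelled cells (IL7R), and 2 higher (IL7R and GNLY) and 1 lower (NKG7) in empty vector cells. IL7R rose by 6.91 ± 0.15 in EVI1-labelled cells and by 7.49 ± 0.15 in empty vector cells. The median difference over the 10 was only 0.08 in EVI1-labelled cells and 0.06 in empty vector cells. The mean value was 4.98 to 5.10 on TPA arrays and 5.06 to 5.49 on ethanol arrays over 6 B cell markers, where FCRLA rose and PAX5 fell in both populations. It was 5.63 to 6.29 on TPA arrays and 5.92 to 6.04 on ethanol arrays over 9 neutrophil markers, where MMP8, LTF and FPR1 rose and CSF3R, ELANE and MPO fell in both populations, and FCGR3B rose in empty vector cells. It was 5.08 to 5.32 on TPA arrays and 5.14 to 5.27 on ethanol arrays over 8 dendritic cell markers, where CD1C rose and BATF3 fell in both populations, and 5.75 to 6.01 on TPA arrays and 5.58 to 5.78 on ethanol arrays over 6 erythroid and megakaryocyte markers, where HBB rose in empty vector cells. The mean over 15 monocyte and macrophage markers was 7.98 to 8.77 on TPA arrays and 6.46 to 6.71 on ethanol arrays, with 8 higher and 1 lower (LYZ) in EVI1-labelled cells and 11 higher and 3 lower (LYZ, CEBPA and MARCO) in empty vector cells. The counts of every marker list stand against 40% of all genes called with TPA in EVI1-labelled cells and 43.2% in empty vector cells.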

How the data were processed

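RNA was profiled on 12 Affymetrix arrays from 250 ng of total RNA each, per the labels' protocols. Per the submitters' processing notes, the authors used RMA and Affymetrix Expression Console 1.3, and the values they deposited are on a log2 scale. RMA subtracts background, gives arrays a common distribution and summarises probes, so a shift shared by most genes is removed and dim genes are compressed. No detection call was used. Platform annotation named 1 gene for 41097 of 54675 probe sets. Symbols were matched by gene identifier to a RefSeq table. Each of 19777 genes was tested with limma 3.58.1 in R 4.3.3 (1 mean per group, empirical Bayes, two-sided). The fit was tested on simulated data with known changes. The receptors and gene lists were chosen with earlier results of these data known. All receptors are named, with up to 3 called genes each way of each list, ligands of the receptors and the 3 most alike genes. In TPA, same-numbered arrays of the populations deviated together (correlations of 0.415, 0.13 and 0.151), and in the other comparisons they did so at 0.075 to 0.208. The own number correlated best in 12 of 12 pairs, so the numbers may pair samples throughout, a reading of the data that no label states. All limma p-values printed are from fits without pairing, and the paired fit is an alternative. The exact permutation tests of the ACTB and GAPDH gaps also used no pairing and pooled the populations. Alternatives were a replicate block, each array left out, a filter, other probe sets, normalizations and variance models, and the arrays compared alone.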

Additional observations from a re-analysis of the deposited data

Results flagged for a closer look

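CCR2 was the receptor whose response to TPA differed between the populations by the test of the difference itself, at 1.35 ± 0.25 (EVI1-labelled minus empty vector, limma adjusted p = 0.0146). The change with TPA was -0.55 ± 0.18 in EVI1-labelled cells and -1.90 ± 0.18 in empty vector cells, and all 3 arrays fell below the ethanol arrays in each. With TPA it averaged 4.37 in EVI1-labelled cells and 4.09 in empty vector cells, and with ethanol 4.92 in EVI1-labelled cells and 5.99 in empty vector cells. Only the last of these means was above 5.07, so the sizes are uncertain. At the second, dim probe set the difference in response was -0.34 ± 0.15 (limma adjusted p = 0.431). The mean of both probe sets gave 0.50 (limma adjusted p = 0.22).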

How the results depend on the processing

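All counts below are at an adjusted p under 0.05. With the replicate block, the receptor counts were as without it, at 6, 6, 1, 1 and 1 for TPA in EVI1-labelled cells, TPA in empty vector cells, the populations in ethanol, the populations in TPA and the difference in response, and no receptor gained or lost a call. Outside the TPA-treated populations same-numbered arrays correlated at 0.075 to 0.208, and in 12 of 12 pairs the own number correlated best. Leaving out 1 array at a time gave 0 to 2 receptors called between the populations in TPA and 1 to 2 for the difference in response. Over all genes it gave 369 to 787 calls between the populations in ethanol and 188 to 681 for the difference in response, against 647 and 392. Leaving out genes below the median mean, which removes CCR2, gave 0 receptors in ethanol, 2 in TPA and 0 for the difference in response. The mean of a gene's probe sets gave 0 receptors in TPA and 0 for the difference in response, where CCR2 was at 0.50 (adjusted p = 0.22) and CX3CR1 at 0.52 in TPA (adjusted p = 0.0659). It also ended the CX3CR1 call with TPA in empty vector cells, at 0.43 (adjusted p = 0.0532), and put CCR2 at -0.01 between the populations in TPA. Fitting the compared arrays alone gave 0 receptors between the populations in TPA (CX3CR1 adjusted p = 0.0879) and 1241 genes against 2214. Array weights gave 1206 genes in ethanol and 617 for the difference in response. The causes were not tested.

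Some directions turned. At the second, dim CCR2 probe set those of the called differences with TPA in empty vector cells, in ethanol and in response turned, and the fall with TPA in EVI1-labelled cells kept its direction and call. Centring on the gene median put CXCR2 at -0.01 in ethanol. Other probe sets gave -0.08 for CCR1 in the difference in response, -0.06 for CMKLR1 in ethanol and, for a further CMKLR1 probe set, -0.13 between the populations in TPA and -0.19 in the difference in response. For CX3CR1 the second probe set gave -0.05 with TPA in EVI1-labelled cells, -0.01 in empty vector cells and -0.04 in the difference in response, and for CXCR3 it gave 0.04 in empty vector cells. For CCR2 it gave 0.04 in empty vector cells, 0.04 between the populations in ethanol, -0.30 in TPA and -0.34 in the difference in response. With 1 array left out, ranges crossed 0 for CCR7 with TPA in empty vector cells (-0.01 to 0.14) and between the populations in TPA (-0.09 to 0.02). In ethanol they did so for CXCR2 (-0.06 to 0.08), CXCR4 (-0.04 to 0.06), CXCR3 (-0.02 to 0.16) and CMKLR1 (-0.01 to 0.06). They also did so for CXCR2 between the populations in TPA (-0.04 to 0.27) and in the difference in response (-0.05 to 0.27). The differences with TPA of CCR1, CMKLR1, CXCR4 and CXCR2 kept their direction and call in both populations under each alternative run. Without the genes below the median mean, which removes PPBP and CXCL3, 3 ligands had a called difference in response, against 5 with all genes.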

Other observations

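Of 12 measured regulators of G protein signalling, receptor kinases and arrestins, 7 rose and 1 fell in EVI1-labelled cells, and 7 rose and 3 fell in empty vector cells, against 40% and 43.2% of all genes called either way in the same populations. GRK2 and GRK5 were not called in either. RGS13 rose by 7.42 ± 0.12 in EVI1-labelled cells and by 7.21 ± 0.12 in empty vector cells, RGS1 by 5.72 ± 0.36 in EVI1-labelled cells and 6.64 ± 0.36 in empty vector cells, and RGS2 by 4.03 ± 0.20 in EVI1-labelled cells and 4.05 ± 0.20 in empty vector cells. RGS proteins speed the shut-off of G proteins. RGS13 averaged 2.63 in EVI1-labelled cells and 2.75 in empty vector cells with ethanol, below 5.07, so the size of its rise is uncertain. ARRB1, which encodes a beta-arrestin that uncouples receptors from G proteins, rose by 0.88 ± 0.09 in EVI1-labelled cells and 1.17 ± 0.09 in empty vector cells. RGS18 differed by -1.65 ± 0.21 in EVI1-labelled cells and -0.70 ± 0.21 in empty vector cells. GRK3 and GRK6, kinases that mark receptors for arrestin, gave -0.24 ± 0.13 and -0.15 ± 0.11 in EVI1-labelled cells, not called, and -0.49 ± 0.13 and -0.30 ± 0.11 in empty vector cells, both called. RGS16 was the 1 gene of the list with a called difference in response, at -1.63 ± 0.27 (limma adjusted p = 0.00709), with a rise of 2.19 ± 0.19 in EVI1-labelled cells and 3.83 ± 0.19 in empty vector cells. A difference in response was called in that direction for 1.05% of all genes, and either way for 1.98%.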
